A study of Aix galericulata with 8 samples.

Results

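The members described here are grouped as enzymes and regulators of keratinocyte differentiation. They are every gene model with the symbol cPAD2, CASP17, EHF, ZNF750 or ESRP1 in the deposited tables of growing Mandarin duck (Aix galericulata) sail feathers. The 5 symbols take up 7 of the 859 gene models that the epithelium and pulp tables list between them, in 8 entries, because the gene model of ZNF750 is in both. The feathers came from wild-type males in the breeding season and regrew for about 4 weeks after plucking, with no treatment. Each feather was dissected into epithelium, whose keratinocytes form the barbs, and pulp, its mesenchymal core. For either tissue, poly(A) RNA was sequenced from 2 libraries of the medial brown side and 2 of the lateral blue side of the vane, 8 in all. The labels call these libraries independent biological replicates. The study's methods name 2 males and also the neighbouring flight feather, which the labels do not name, and the male and wing behind each library are not given in the sources used here.

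Keratinocytes that leave the basal layer of the epidermis stop dividing, switch on a program of structural proteins and enzymes, and die as cornified cells. In a feather this program turns epithelial ridges into the hardened barbs of the vane. ZNF750 is a zinc finger transcription factor that acts downstream of TP63 in human epidermal keratinocytes and drives their terminal differentiation. EHF is an ETS-family transcription factor of epithelia, and ESRP1 is an RNA-binding protein that sets epithelial patterns of alternative splicing in human and mouse cells. cPAD2 is a symbol given to a chicken peptidylarginine deiminase, an enzyme family that converts arginine in proteins to citrulline, and mammalian relatives act on proteins of the cornifying epidermis and hair follicle. CASP17 is a caspase, a member of a family of cysteine proteases. Its role in keratinocytes is not given in the sources used here.

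The deposited tables set the medial brown vane against the lateral blue vane within each tissue, which addresses what distinguishes the sides of an asymmetric feather. They list 784 gene models for the epithelium and 80 for the pulp, and all of these lie under the 0.05 threshold on the unadjusted p-value of the authors' comparison. The members were thus chosen by their symbol among gene models selected on that p-value, and their presence in a table is a result of this selection. The fold changes and p-values are the authors' own results and were not used. In which vane a member was higher, by how much, and whether it passed a correction for multiple tests are therefore not given here. The remaining measurement is logCPM, the log2 of CPM (a read count divided by the size of its library), which the authors averaged over libraries. The average logCPM is taken here to be over the libraries of each table's own tissue, since the gene models in both tables have different values in each. It pools both vanes, has no value per library and carries no error, and the depth of the libraries is unknown, so no difference below was tested against the spread between replicates. CPM is not corrected for transcript length, so an order among different genes is an order of read counts and not of transcript number.

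The epithelium table holds the enzymes cPAD2 and CASP17 and the regulator ZNF750, in 5 gene models. The pulp table holds 3 regulators, ZNF750, EHF and ESRP1, with 1 gene model each, and neither enzyme. Of all 859 listed gene models only 5 are in both tables, so being listed for a single tissue is the rule and not a trait of the members. A symbol that is not listed for a tissue is not shown to be unexpressed there, since only gene models under the threshold are listed. Levels of EHF and ESRP1 in the epithelium, and of cPAD2 and CASP17 in the pulp, were thus not obtained.

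ZNF750 (Mandarin_00298600) had the highest read count of the single member gene models in the epithelium, with an average logCPM of 6.42, or 85.7 CPM. The 3 gene models of cPAD2 held 87.7 CPM together. The read count of ZNF750 was above that of 86.1% of the other 783 gene models in the epithelium table, whose median logCPM was 4.84. In the pulp the same gene model had an average logCPM of 3.36, or 10.3 CPM, above 36.7% of the other 79 listed there, where the median logCPM was 4.14. The average level of ZNF750 was therefore 8.35-fold higher in the epithelium than in the pulp, a logCPM difference of 3.06. This difference was 2.36 when each average was taken relative to the median of its own table. It was 3.40 relative to the median difference of the other gene models in both tables. Both references are gene models selected on the authors' p-value, so neither tests the difference. Whether the tissues were normalized together or separately is not given in the sources used here, and this difference has no error and no test. Fewer cells that express a gene and less of its RNA per cell cannot be told apart in bulk tissue.

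ZNF750 is 1 of 5 gene models listed in both tissues, and the values of the other 4 are given beside it. All 5 were selected on the authors' p-value in each tissue, so they give no scale for differences between the tissues. HPGDS, a prostaglandin D synthase, averaged a logCPM of 9.82 in epithelium and 5.87 in pulp, a difference of 3.95. The unnamed gene model Mandarin_00536000 was also higher in the epithelium, with a logCPM difference of 1.42. SPOCK3, a proteoglycan of the extracellular matrix, lay the other way, with an average logCPM of 4.80 in epithelium and 7.98 in pulp. AEBP1, whose secreted form is a matrix protein of mesenchymal cells, had a logCPM of 5.58 in epithelium and 7.68 in pulp. The difference of ZNF750 was thus smaller than that of HPGDS, and of the other 4 gene models 2 were higher in the epithelium and 2 were lower.

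**Figure D1:**
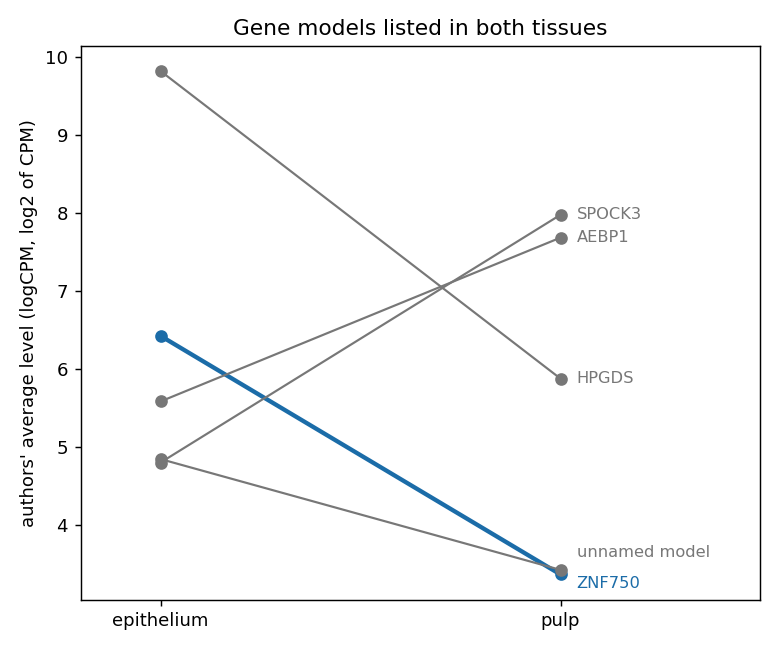
Average logCPM (log2 of CPM, y axis) of the 5 gene models that both tables list, with the epithelium at the left and the pulp at the right; each line joins the same gene model's authors' averages, which carry no error. ZNF750 (blue) runs between 6.42 in the epithelium and 3.36 in the pulp, and SPOCK3 and AEBP1 slope the other way.

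The peptidylarginine deiminase cPAD2 was represented by 3 gene models in the epithelium table, with consecutive identifiers in the authors' annotation. Mandarin_01316200 had an average logCPM of 5.80, or 55.7 CPM. Mandarin_01316300 had 4.51, or 22.8 CPM. Mandarin_01316100 had 3.20, or 9.19 CPM. The middle identifier of the run thus carried the most reads, 63.5% of the 87.7 CPM that the 3 hold together, and the lowest carried 10.5%. Mandarin_01316200 lay above the median of the epithelium table, with a read count above 72.3% of the other gene models. Mandarin_01316300 and Mandarin_01316100 lay below it, above 42.5% and 20.9% of the other gene models. Of the 499 symbols in the epithelium table, 46 had several gene models and 15 had 3 or more. Whether the 3 are separate genes of the family or pieces of a single gene is not given in the sources used here, and reads from near-identical copies could have been split between them or dropped, so the level of each is uncertain. The nearest other listed gene model was NCAM1, a neural cell adhesion molecule, at 3 steps from the last of them.

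CASP17 (Mandarin_01551500) had the lowest CPM of the member gene models. Its average logCPM of 1.91 corresponds to 3.75 CPM in the epithelium, above 10.5% of the other listed gene models. The gene models SVIL and AEBP1, at 4 and 5 steps from it in the annotation, were also listed in the epithelium, and they had 52.2 and 47.9 CPM. ZNF750, EHF and ESRP1 had no listed gene model of the same tissue within 5 steps. How often listed gene models have such neighbours was not computed, so this nearness cannot be read as a trait of CASP17.

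In the pulp, the epithelial regulators ESRP1 and EHF had read counts near the middle of the table. ESRP1 (Mandarin_00419500) had an average logCPM of 4.17, or 18.0 CPM, and its read count was above 50.6% of the other 79 gene models. EHF (Mandarin_01054000) had an average logCPM of 4.03, or 16.3 CPM, above 46.8%. ZNF750 had 10.3 CPM. The 3 members in the pulp table were measured in libraries labelled as mesenchymal. That they are regulators known from epithelia follows from the choice of the member symbols and is not a result about the pulp. Of 14 markers of epithelium (keratins, EPCAM, CDH1 and others) and 14 of mesenchyme (collagens, PDGFRA and others), 0 are in either table, so the labelled tissue could not be set against its defining markers, and the part of epithelial cells in these pulp levels was not tested. Of 9 endothelial markers, 2 are in the epithelium table and 0 in the pulp table. These are ENG, a TGF-beta co-receptor, at 50.0 CPM and TEK, the angiopoietin receptor, at 9.48 CPM. Of 8 melanocyte markers 1, the melanosome protein MLANA, is in the pulp table at 48.4 CPM and 0 are in the epithelium table. The part of these cell types in the members' levels was not tested.

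**Figure D2:**
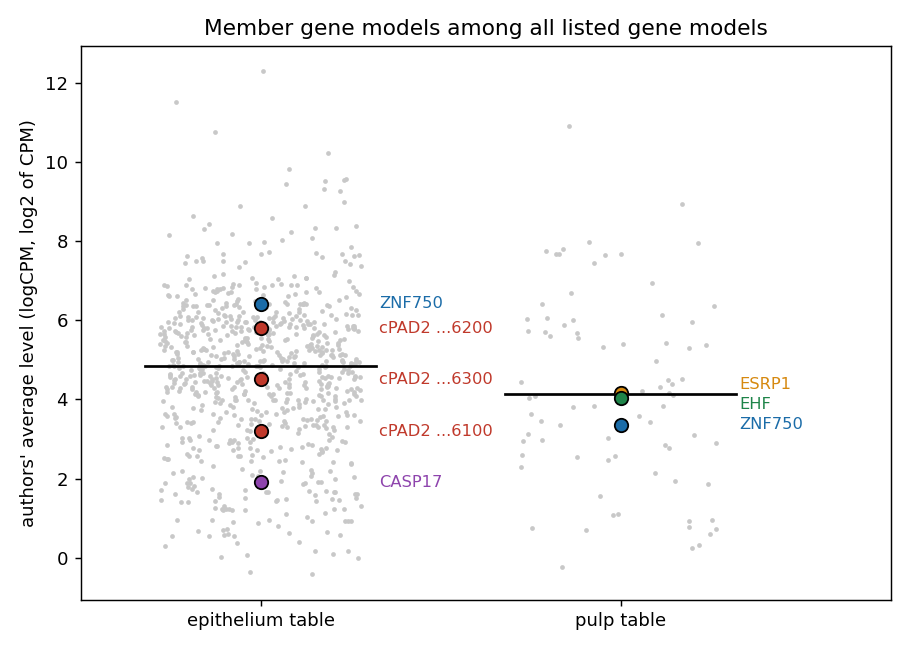
Average logCPM (log2 of CPM, y axis) of every listed gene model in the epithelium table (left) and the pulp table (right), with grey points spread sideways for visibility, a black line at each table's median and member gene models as coloured points; cPAD2 is marked by the last digits of its identifiers. Epithelial members range between 1.91 for CASP17 and 6.42 for ZNF750, and the 3 pulp members lie between 3.36 and 4.17.

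Other genes of keratinocyte differentiation were looked for with a list of 61 symbols that includes the members, covering transcription factors such as TP63, KLF4, GRHL3 and OVOL1, deiminases, caspases, transglutaminases, desmosomal proteins and enzymes of the lipid barrier. Of these, 3 symbols were in the epithelium table and 3 in the pulp table, and 0 were symbols other than the 5 members. The symbols found were thus fixed by the choice of members. The list was written with earlier results of these data known, so it was not an independent search. Being listed is a call by the authors' threshold, and the share of all tested genes that were listed was not computed here, so neither these counts nor those of the marker lists can be read against it. TGM1, a transglutaminase that crosslinks the cornified envelope, ABCA12, a lipid transporter of the barrier, and ESRP2, the paralog of ESRP1, are thus not listed in either tissue. Avian structural genes may carry other names or none in this annotation, where 214 of the 784 epithelial and 23 of the 80 pulp gene models have no symbol. The 5 epithelial member gene models had a median logCPM of 4.51, beside 4.84 over the whole epithelium table. Of these 5, 3 share the symbol cPAD2, and the median is the value of its gene model Mandarin_01316300. With cPAD2 taken by its highest gene model (5.80), cPAD2 and ZNF750 (6.42) lay above 4.84 and CASP17 (1.91) below. That median still counts every gene model of every symbol. Against 1 value per symbol, its highest, cPAD2 lay above 70.9% of the others, ZNF750 above 85.5% and CASP17 above 9.24%. The place of the epithelial members against their table thus depends on how cPAD2 is counted. For the 3 pulp members the median was 4.03, beside 4.14 over the whole pulp table.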

How the data were processed

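Poly(A) RNA libraries were read as single reads. The study's methods name alternative sequencing platforms and do not say which library was read on which. A platform difference between the tissues could therefore not be checked. Per the labels, the authors used STAR 2.4.1d for alignment, HTSeq 0.6.0 for counting and edgeR for comparison; the study's methods add TMM normalization. The study used a Mandarin duck reference genome; its build name and annotation release are not given in the sources used here. The deposited tables, 1 per tissue, hold log2 values computed by the authors. These are logCPM, the average level of each gene model on the log2 CPM scale, and a log2 fold change of medial brown over lateral blue. The fold changes, p-values and adjusted p-values are the authors' own comparison and were not used, except that every entry was checked to lie under the 0.05 threshold. Columns for single libraries numbered 0, so depth, replicate error and any test across libraries were out of reach.

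Members were matched exactly on the symbol. CPM were computed as 2 to the power of logCPM, and each member's place as the percentage of the other gene models in its table with a lower logCPM. Whether CPM or their logs were averaged is not given in the sources used here, so sums and shares of CPM are approximate. Identifiers were counted in steps of the annotation's numbering, up to 5 steps from a member. Named genes are all member gene models, listed genes of the differentiation list and gene models in both tables; NCAM1 and SVIL, as neighbours, the markers ENG, TEK and MLANA, and the absent genes given as examples were chosen after the tables had been seen. The members and lists were chosen with earlier results of these data known. Alternatives were other sets of gene models to rank against, other scalings between tissues, other ways to combine cPAD2 and looser symbol matching. The tools were pandas 2.3.3, scipy 1.17.1, matplotlib 3.10.9 and numpy 2.4.6 under Python 3.11.15.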

Additional observations from a re-analysis of the deposited data

How the results depend on the processing

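The place of the 8 member entries within their tables was recomputed among gene models with a symbol, among those with at least 1 CPM and with 1 value per symbol. All 24 values stayed within the 95% Wilson interval of the original share and moved by -3.37 to 6.87 percentage points. These sets are parts of the same list, so staying within the interval was largely built in. The interval measures no error between replicates. The epithelium minus pulp logCPM of ZNF750 was 3.06 as deposited and 2.36 relative to the median of each table. It was 3.40 relative to the median difference of the other 4 gene models in both tables, whose differences ranged from -3.18 to 3.95. The direction was kept, but both references are gene models selected on the authors' p-value, so neither rescaling tests the difference. The combined cPAD2 level, 87.7 CPM as a sum, was 29.2 CPM as a mean and 55.7 CPM for the highest gene model alone. Matching symbols without regard to case, with PADI2 counted as cPAD2 for the members, left the counts of members and of listed differentiation genes in each table as they were. No paired analysis was possible because the tables hold no column for any library. For the same reason no library could be left out. A low average such as that of CASP17 is limited by depth, which is unknown.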
